A study of Mus musculus with 22 samples.

Results

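The 4 Notch receptors of the mouse (Notch1, Notch2, Notch3 and Notch4), their 5 canonical ligands (Dll1, Dll3, Dll4, Jag1 and Jag2) and the target gene Hey1 were followed by DNA methylation through mammary tumor progression. Every CpG position was taken that lay in the body of these 10 genes or within 2 kb of a RefSeq transcription start site (TSS) of them and was covered by at least 10 reads in all 22 samples. This gave 1284 positions at 1062 CpGs, out of 1140639 such positions in the genome, because the strands of a CpG were listed apart. Of them 887 lay within 2 kb of a TSS and 397 in the rest of the gene bodies.

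The data were made by ERRBS (Enhanced Reduced Representation Bisulfite Sequencing), which reads the methylation of CpG-rich DNA from the share of reads in which a cytosine resisted bisulfite conversion. The PyMT samples came from F1 females heterozygous for a transgene in which the MMTV promoter, active mainly in mammary epithelium, drives the polyoma middle T antigen; they were bred from PyMT males and FVB females and form tumors spontaneously. The controls were age-matched FVB females without the transgene, and all groups share the FVB background. PyMT glands were taken at week 6 (hyperplasia, 2 samples), week 8 (adenoma/MIN, mammary intraepithelial neoplasia, 3 samples), week 10 (early carcinoma, 3 samples) and week 12 (late carcinoma, 2 samples), beside 3 FVB glands at each week. The DNA was that of bulk gland or tumor, so a shift in cell makeup and a change within a cell type cannot be told apart.

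Notch receptors are membrane proteins that are cut when a ligand on a neighbouring cell pulls on them. The freed intracellular part enters the nucleus, joins RBPJ and MAML proteins on DNA and switches on genes of the HES and HEY families. In the mammary gland the pathway takes part in the choice between basal and luminal fates, and DLL4 with NOTCH1 and NOTCH4 is known from the endothelium of growing vessels. Methylation of CpG-rich promoters is generally linked to a silent gene, whereas gene bodies are often methylated in active genes too.

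A sample held 1314077 to 1435757 positions at a mean coverage of 60.2 to 79.2 reads, and the mean coverage of the 1284 positions ran from 20.1 to 166 reads with a median of 75.9. PyMT and FVB samples separated on the first principal component. FVB week 8 replicate 2 stood apart on the third component, at 1422 against -222 to 266 for the other samples. Replicates of a group differed by more than sampling noise in every pair, with chi-squares per position averaging 2.08 to 4.02. Each of the 1284 positions matched a CpG of the mm10 sequence.

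In 6 of the 10 genes a run of CpGs was called different between PyMT and FVB. Such calls were common, with 6.32% of all runs in the genome called higher and 16.1% lower. The share of all genes with a called run was not determined. The run with the largest difference in each of the 6 genes is shown because most results turn on it. A run, named a cluster here, was at least 3 positions with gaps of at most 100 bp. Sequences are from the plus strand of mm10, 5′ to 3′, and capitals mark the CpGs that were measured in every sample.
Notch2, chr3:98098315-98098364: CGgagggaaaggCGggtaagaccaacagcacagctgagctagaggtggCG
Notch3, chr17:32153892-32153941: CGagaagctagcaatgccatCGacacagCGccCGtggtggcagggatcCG
Jag2, chr12:112915582-112915634: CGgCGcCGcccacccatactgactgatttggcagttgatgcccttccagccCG
Notch1, chr2:26493956-26494000: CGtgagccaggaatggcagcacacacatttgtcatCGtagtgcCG
Notch4, chr17:34568431-34568568: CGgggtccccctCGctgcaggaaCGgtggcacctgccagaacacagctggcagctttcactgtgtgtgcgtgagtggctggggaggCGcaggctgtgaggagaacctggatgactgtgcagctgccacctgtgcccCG
Dll4, chr2:119324034-119324214: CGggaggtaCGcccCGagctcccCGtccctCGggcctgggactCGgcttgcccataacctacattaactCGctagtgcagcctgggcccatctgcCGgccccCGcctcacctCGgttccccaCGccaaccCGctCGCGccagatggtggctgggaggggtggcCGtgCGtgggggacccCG
The first 5 lay inside gene bodies and the last upstream of its gene. By contrast, the CpGs measured in the 250 bases before the Dll4 TSS were nearly free of methylation. These bases are shown for comparison, from the RefSeq promoter of build GRCm38.p6.
Dll4 promoter, chr2:119325534-119325783: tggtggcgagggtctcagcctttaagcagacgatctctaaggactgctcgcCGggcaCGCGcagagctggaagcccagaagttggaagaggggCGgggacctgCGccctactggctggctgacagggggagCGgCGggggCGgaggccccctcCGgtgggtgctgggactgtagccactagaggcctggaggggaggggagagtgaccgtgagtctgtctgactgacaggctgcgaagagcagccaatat
At the 9 positions measured there, methylation averaged 0.312% in PyMT and 0.209% in FVB. They cover 9 of the 14 CpGs of these bases, and the level of the others is not known.

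Which of these positions changed at each stage was asked first. A differentially methylated cytosine (DMC) had a q-value under 0.01 in a logistic regression on reads and differed by 10 or more percentage points between the pooled reads of the strains. At week 6, 35 positions were hyper-DMCs and 40 hypo-DMCs, or 2.73% and 3.12% of the 1284, where 2.62% and 6.01% of all positions of the genome were called. At week 8 there were 50 hyper- and 45 hypo-DMCs (3.89% and 3.5%, genome 3.20% and 7.10%). Week 10 had 65 and 58 (5.06% and 4.52%, genome 4.39% and 8.42%), and week 12 had 59 and 52 (4.6% and 4.05%, genome 4.44% and 8.53%). The hyper share of the Notch genes thus lay near the genome's share at each week and the hypo share below it. Reads, not mice, are the unit of this test. With a correction for overdispersion between mice, 11 hyper- and 15 hypo-DMCs were left at week 6 (genome 0.883% and 2.52%), 21 and 11 at week 8 (1.22% and 3.06%), 35 and 29 at week 10 (2.39% and 5.22%), and 30 and 25 at week 12 (2.53% and 5.14%).

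Most DMCs lay in the gene bodies, as they did among all genes. Of the 887 positions within 2 kb of a TSS, 35 (3.95%) were a DMC at any week, where 5.74% of such positions of all genes were called, and 19 of those 35 belonged to Dll4. Of the 397 positions elsewhere, 156 (39.3%) were a DMC at any week, beside 42.0% of the body positions of all genes. Over all weeks 103 positions were hyper-DMCs at 1 or more stages, 90 were hypo-DMCs, 2 changed direction and 1093 were never called. At all 4 stages 8 positions were hyper-DMCs (genome 1.05%) and 16 were hypo-DMCs (genome 3.27%). The promoters of Notch1, Notch2, Dll1, Jag1 and Hey1 held no DMC at any week among their 55, 47, 124, 189 and 100 positions. Notch2 had the most body DMCs, from 9 hyper and 9 hypo at week 6 to 14 hyper and 15 hypo at week 12. Dll4 had promoter hyper-DMCs at every stage, 5, 13, 16 and 15 of 93 positions at weeks 6, 8, 10 and 12, and no promoter hypo-DMC. At 4 of the 1284 positions all PyMT samples lay above all FVB samples, and at 10 they all lay below (genome 0.654% and 2.08%).

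**Figure D1:**
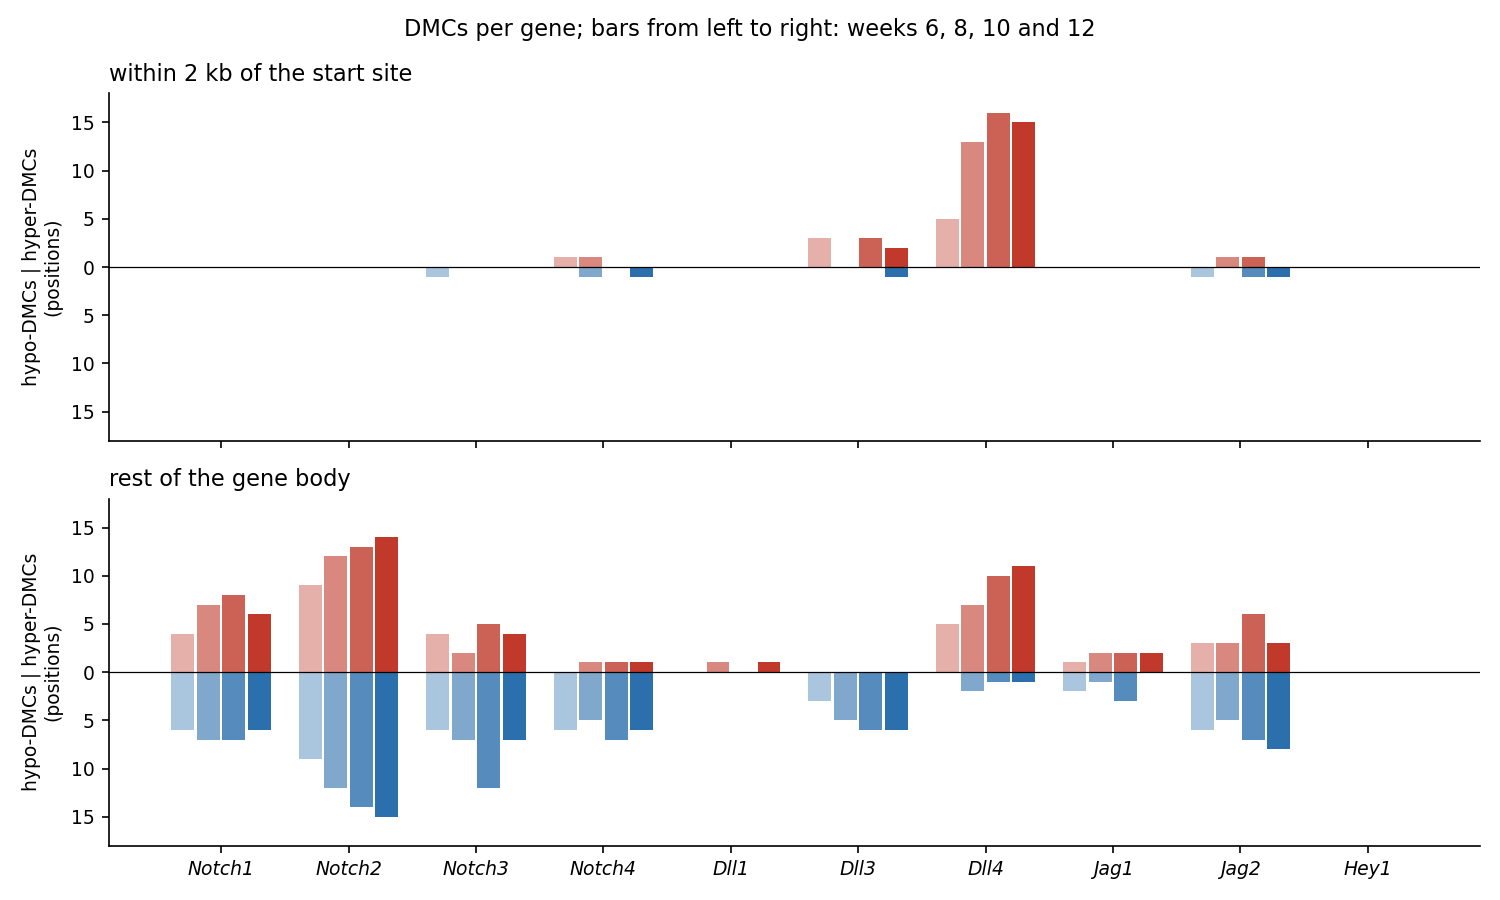
Number of DMC positions of each gene (vertical axis, hyper-DMCs upward in red, hypo-DMCs downward in blue), within 2 kb of a TSS (top) and in the rest of the gene body (bottom), with bars for weeks 6, 8, 10 and 12 from left to right. The top panel is nearly empty apart from Dll4, where hyper-DMCs went from 5 to 15, and the bottom panel shows Notch2 with 14 hyper- and 15 hypo-DMCs at week 12.

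To take mice as the unit, methylation was averaged over each cluster in each sample. The 10 genes held 78 clusters with 1247 of their positions, among 84563 clusters of the genome. A cluster was called with an adjusted p under 0.05 (limma, Benjamini-Hochberg over all clusters) and a difference of at least 10 percentage points. Over all weeks 7 clusters were called higher and 10 lower in PyMT, where 6.32% and 16.1% of all clusters were called. Without FVB week 8 replicate 2, which stood apart, 8 were called higher and 9 lower. The counts were 2 higher and 4 lower at week 6 (genome 2.82% and 9.11%), 4 and 5 at week 8 (4.62% and 13.0%), 7 and 9 at week 10 (6.22% and 15.9%), and 10 and 7 at week 12 (6.28% and 17.6%). The median difference was 0.01 points over the 78 clusters and -0.15 over all clusters.

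Of the 30 clusters within 2 kb of a TSS, 1 was called (Dll4, higher), where 2.98% of such clusters of all genes were called higher and 4.62% lower. Of the other 48, 6 were called higher and 10 lower, where 7.96% and 21.7% of the clusters elsewhere in the genome were called. Calls away from the TSS were thus the more frequent ones in the Notch genes and in the genome alike. In 3 clusters all 10 PyMT samples lay above all 12 FVB samples, and in 4 they all lay below, against 3.49% and 9.25% of clusters in the genome. The clusters without overlap were those of Dll4, Jag2 at its TSS and Notch1 in intron 4 on the higher side, and those of Notch2 (in exon 6 and in intron 25), Notch3 (exon 11) and Notch4 (intron 3) on the lower side.

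**Figure D2:**
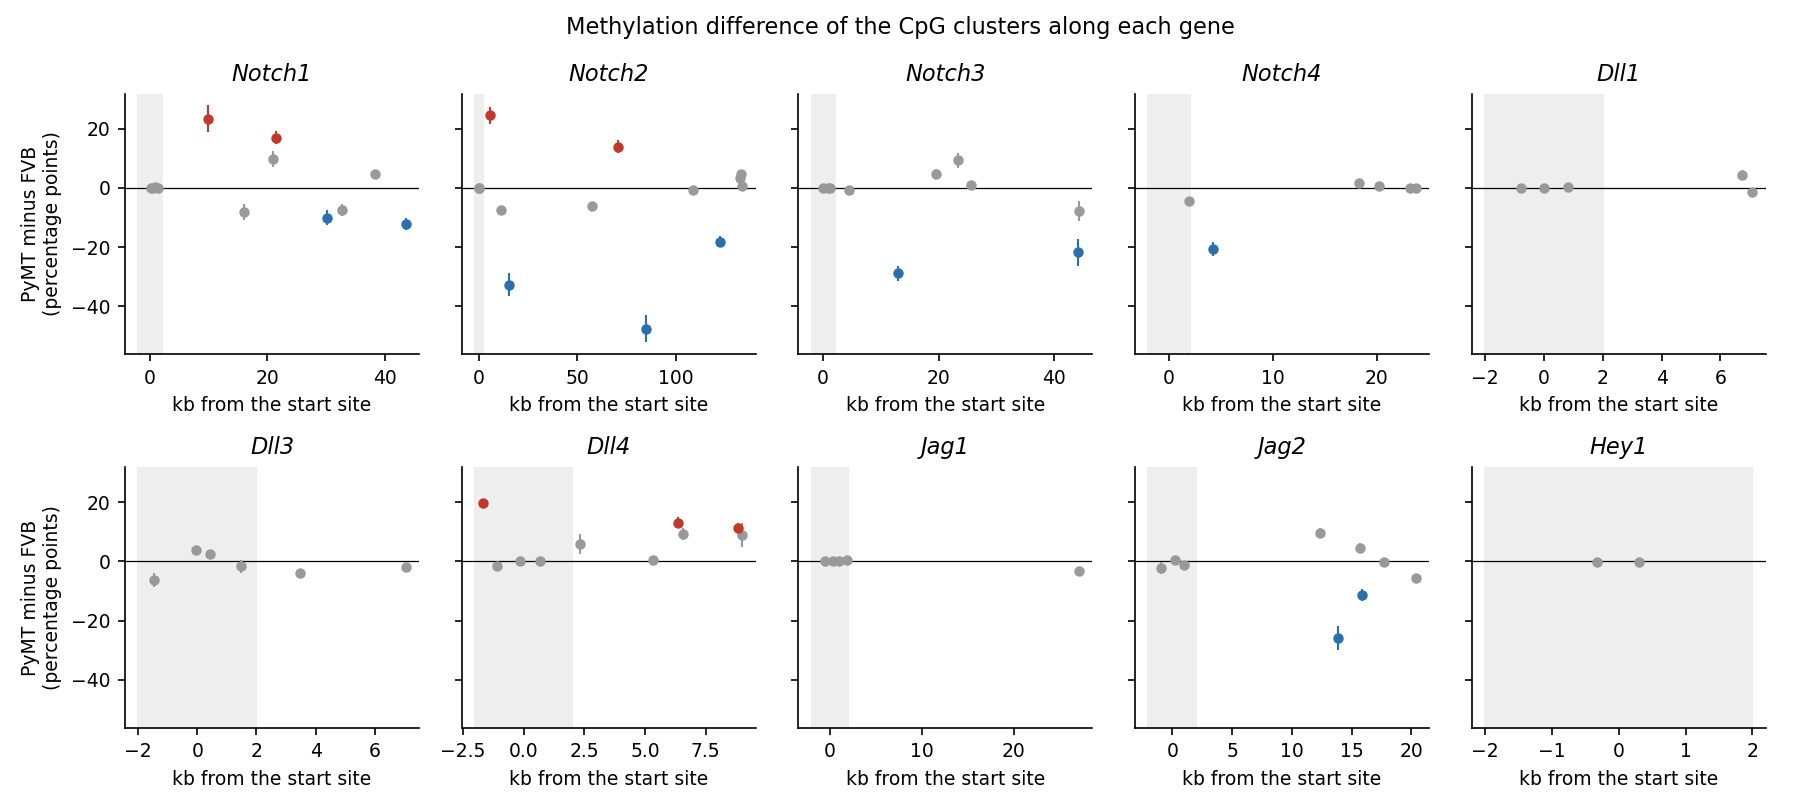
Methylation difference of each of the 78 clusters, PyMT minus FVB over all weeks in percentage points with its standard error, against the distance of the cluster from the TSS in kb; called clusters are red (higher) or blue (lower), others grey, and the grey band marks 2 kb on each side of the TSS. In the bands only the Dll4 cluster at 19.7 points stands off zero as a call, and the largest differences, down to -47.7 points in Notch2, lie far inside the genes.

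Among the receptors, Notch2 showed the largest difference. Notch2 (chr3:98013538-98150367, plus strand) encodes a receptor expressed in many tissues. Its named cluster covers the end of coding exon 6 and the start of intron 6 and has 3 positions at a mean coverage of 22.3 reads. In PyMT it was 52.1% and 25.3% methylated at week 6, 31.7%, 52.7% and 47.8% at week 8, 40.0%, 29.8% and 59.2% at week 10, and 31.5% and 25.6% at week 12. In FVB it was 93.6%, 87.0% and 89.5% at week 6, 74.1%, 100% and 77.95% at week 8, 75.6%, 84.4% and 95.8% at week 10, and 78.5%, 90.7% and 88.5% at week 12. Every PyMT sample was thus below every FVB sample. The difference was -47.7 ± 4.57 points (SE; limma adjusted p = 1.99e-07), and the exact permutation test within weeks gave p = 2.5e-05, the smallest it can give. It was called lower at each of the 4 weeks, and all 3 CpGs of the printed sequence were lower, by -51.8, -46.7 and -41.7 points.

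Notch2 also held called clusters of the opposite sign. Methylation was higher in PyMT at chr3:98019069-98019185 in intron 1 (24.6 points) and at chr3:98084180-98084257 in intron 5 (14.0 points). It was lower at chr3:98029053-98029103, also in intron 1 (-32.7 points), and at chr3:98135842-98135963 in intron 25 (-18.2 points). In the last of these the PyMT samples ran from 56.7% to 82.4% and the FVB samples from 87.0% to 94.6%, with no overlap. The mean over the 74 body positions of Notch2 was 69.1% ± 1.25 in PyMT (SD, n = 10) and 70.01% ± 1.07 in FVB (SD, n = 12), a difference of -0.90 ± 0.63 points (SE; limma adjusted p = 0.276).

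Notch1 (chr2:26457902-26503822, minus strand) encodes a receptor whose activated form is known to drive mammary tumors in mice. Its named cluster, in intron 2, has 3 positions at a mean coverage of 26.7 reads. It ranged from 52.8% to 76.2% in PyMT (median 63.7%) and from 16.7% to 60.0% in FVB (median 38.0%). The difference was 23.4 ± 4.59 points (SE; limma adjusted p = 0.000403). The groups overlapped, and of the 4 weeks the cluster was called at week 12. FVB spread widely at that week, with 31.5%, 60.0% and 16.7%. A further cluster at chr2:26482261-26482315 in intron 4 differed by 17.0 ± 2.13 points with no overlap, from 73.2% to 87.4% in PyMT and from 55.4% to 70.6% in FVB. Of the called clusters further 3′, coding exon 17 (chr2:26473687-26473730) was lower by -10.1 points and coding exon 34 (chr2:26460173-26460370) by -12.3 points. The sign changed several times along the gene but did not strictly alternate. A second cluster of intron 2 (chr2:26487701-26487849) was lower by -8.11 ± 2.83 points (limma adjusted p = 0.0252). Another in intron 4 (chr2:26482894-26483009) was higher by 9.9 ± 2.72 (limma adjusted p = 0.00586). One in intron 20 (chr2:26471090-26471138) was lower by -7.34 ± 2.02 (limma adjusted p = 0.00601). One at intron 27 and exon 28 (chr2:26465452-26465654) was higher by 4.62 ± 0.84 (limma adjusted p = 0.000185). None of these was large enough for a call over all weeks. By week, the one in intron 4 was called higher at week 12 (16.2 points, limma adjusted p = 0.0402). Over the 56 body positions of Notch1 the difference was -0.07 ± 0.85 points.

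Notch3 (chr17:32120820-32166890, minus strand) encodes a receptor known from vascular smooth muscle. The named cluster lies in coding exon 11 and has 5 positions at a mean coverage of 44.3 reads. It ranged from 42.1% to 65.2% in PyMT (median 49.4%) and from 67.1% to 89.0% in FVB (median 81.4%), without overlap. The difference was -28.9 ± 2.62 points (SE; limma adjusted p = 1.05e-07), and it was called lower at each week. The 5 CpGs of the printed sequence did not move alike. The second fell furthest, from 82.4% to 35.8%, and the last least, from 89.8% to 79.99%. Coding exon 33 held another lower cluster (chr17:32122710-32122749), at -21.8 ± 4.50 points, with PyMT from 13.5% to 43.7% and FVB from 28.4% to 66.0%.

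Notch4 (chr17:34564295-34588543, plus strand) encodes the receptor first met in mouse mammary tumors with MMTV insertions. Its named cluster lies in coding exon 6 and has 5 positions at a mean coverage of 67.0 reads. In PyMT it ranged from 46.7% to 66.8% (median 49.6%) and in FVB from 56.97% to 81.9% (median 72.8%). The difference was -20.6 ± 2.28 points (SE; limma adjusted p = 9.95e-07). It was called lower at weeks 6, 10 and 12 and not at week 8 (-11.1 points, adjusted p = 0.0731), where PyMT replicate 1 lay at 66.8%, above FVB replicate 1 at 64.6%. The fourth CpG of the sequence stayed at 86.3% in PyMT and 87.3% in FVB, while the others differed by -17.2 to -28.8 points. Over only 6 positions within 2 kb of its TSS, Notch4 averaged 61.2% ± 2.73 in PyMT (SD, n = 10) and 60.5% ± 3.02 in FVB (SD, n = 12). Part of these positions belong to a cluster in intron 3, 1905 to 2003 bp downstream of the TSS. That cluster averaged 89.45% in PyMT and 94% in FVB, so the mean does not give the level at the TSS itself. The promoters of Notch1, Notch2 and Notch3, with 47 to 55 positions each, were between 0.0658% and 1.46% methylated on average in either strain.

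**Figure D3:**
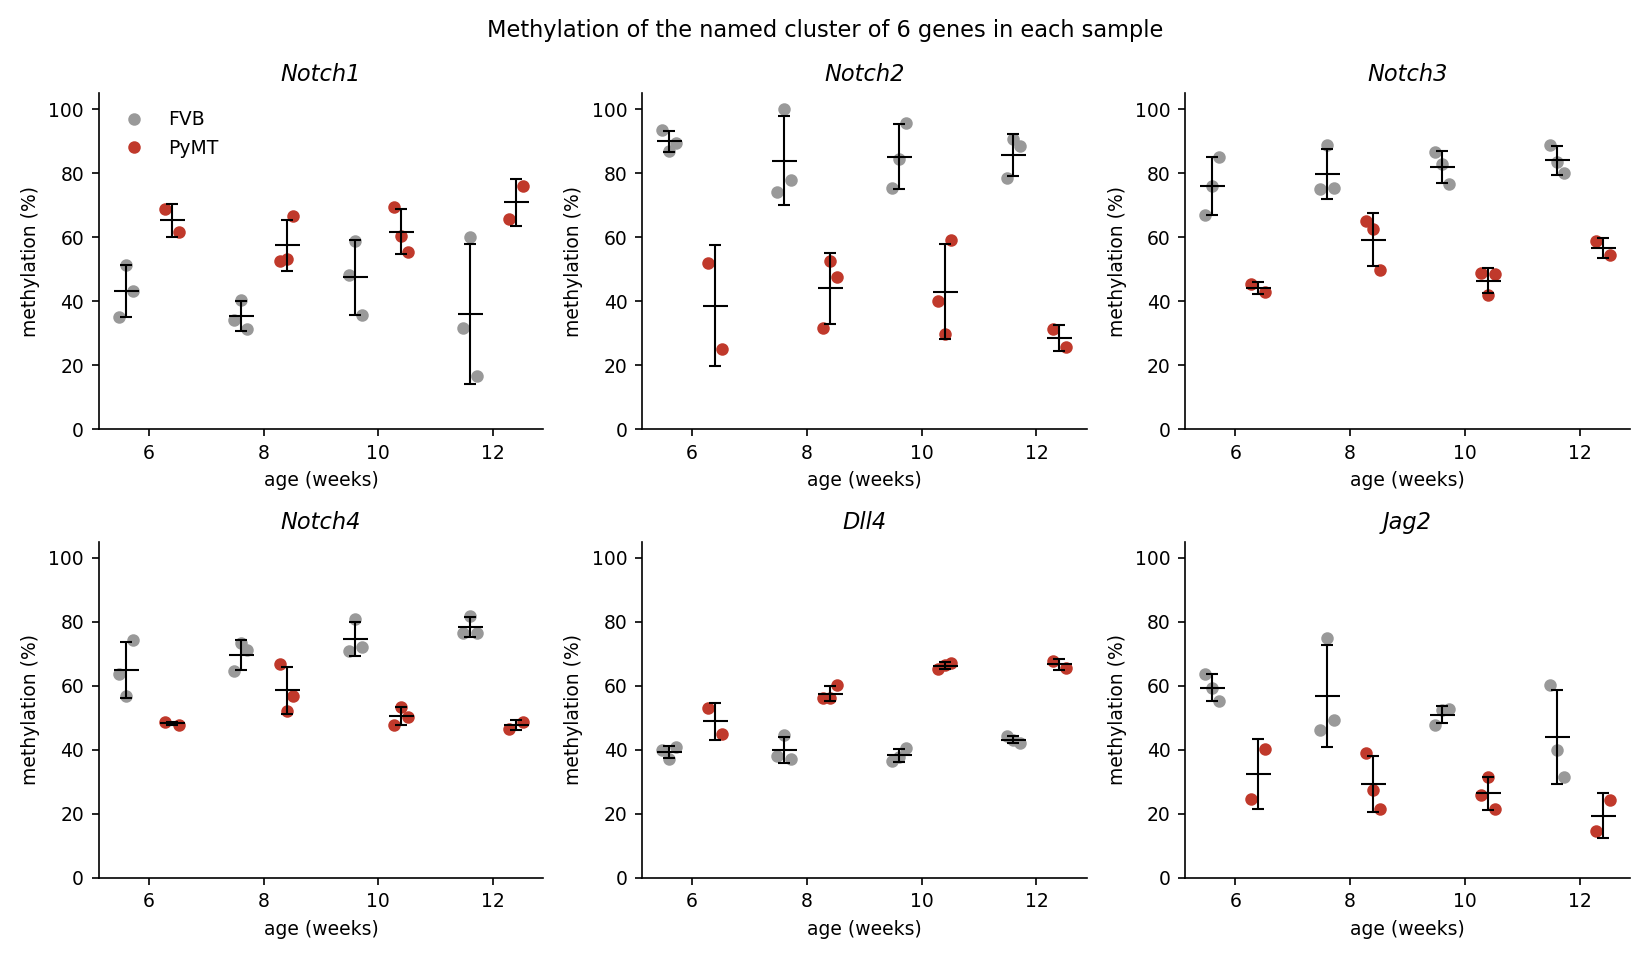
Percent methylation of the named cluster of Notch1, Notch2, Notch3, Notch4, Dll4 and Jag2 in each sample (points; FVB grey, PyMT red) by age in weeks, with black bars for the group mean and SD. The PyMT points lie below all FVB points in Notch2 and Notch3 and above them in Dll4, where they go from 44.9% and 53.0% at week 6 to 65.5% and 67.9% at week 12.

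Among the ligands, Dll4 gained methylation. Dll4 (chr2:119325784-119335666, plus strand) encodes the ligand of sprouting endothelium. Its named cluster lies 1750 to 1570 bp upstream of the TSS, inside the annotated noncoding gene Gm14207, and has 21 positions at a mean coverage of 65.4 reads. In PyMT it was 53.0% and 44.9% methylated at week 6, 56.3%, 56.1% and 60.2% at week 8, 65.3%, 66.6% and 67.2% at week 10, and 67.9% and 65.5% at week 12. In FVB it was 39.8%, 37.2% and 40.8% at week 6, 38.0%, 44.7% and 37.1% at week 8, 36.6%, 37.9% and 40.5% at week 10, and 44.3%, 42.9% and 42.1% at week 12. The lowest PyMT sample, at week 6, was just above the highest FVB sample, at week 8.

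The Dll4 difference was 19.7 ± 1.52 points over all weeks (SE; limma adjusted p = 1.68e-08; exact permutation p = 2.5e-05), and 20.3 points without FVB week 8 replicate 2. By week it was 9.64 ± 3.20 points (adjusted p = 0.0543), 17.6 ± 2.86 (adjusted p = 0.000329), 28.0 ± 2.86 (adjusted p = 2.65e-06) and 23.6 ± 3.20 (adjusted p = 3.97e-05), so the cluster was called at weeks 8, 10 and 12. All 21 positions were higher in PyMT. Along the printed sequence the gain ran from 4.83 points at the seventh CpG to 33.3 points at the twelfth. The next clusters toward the TSS were low in both strains, with 2.34% in PyMT and 3.77% in FVB at 1139 to 1067 bp upstream.

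Within the Dll4 gene the difference returned in part of the clusters. Methylation was higher by 13.1 ± 1.87 points at chr2:119332097-119332188, on the border of intron 8 and coding exon 9, and by 11.4 ± 1.64 points at chr2:119334590-119334663, on the border of intron 10 and exon 11. A cluster further into exon 9 (chr2:119332323-119332361) was higher by 9.27 ± 2.07 points. It was called at weeks 10 and 12 but lay at -3.19 points at week 8. The cluster at exon 8 and intron 8 differed by 0.48 points. Those in exon 4 (5.84 points) and the exon 11 UTR (8.89 points) had limma adjusted p-values of 0.178 and 0.0819. The body as a whole, 33 positions, averaged 76.5% ± 1.58 in PyMT (SD, n = 10) and 70.5% ± 2.03 in FVB (SD, n = 12). This difference of 6.14 ± 0.82 points (SE; limma adjusted p = 7.10e-06) was the 1 call among the 19 promoters and bodies of the 10 genes, where at least 5 points were asked. With a promoter of 500 bp in place of 2 kb, which moves positions near the TSS into the body, 0 were called higher. In the genome 4.13% of promoters were called higher and 6.59% lower, and 10.5% of bodies higher and 32.7% lower. The Dll4 promoter averaged 14.0% ± 1.66 and 9.60% ± 0.72, and its 4.35 ± 0.29 points (limma adjusted p = 2.43e-09) stayed under that size.

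**Figure D4:**
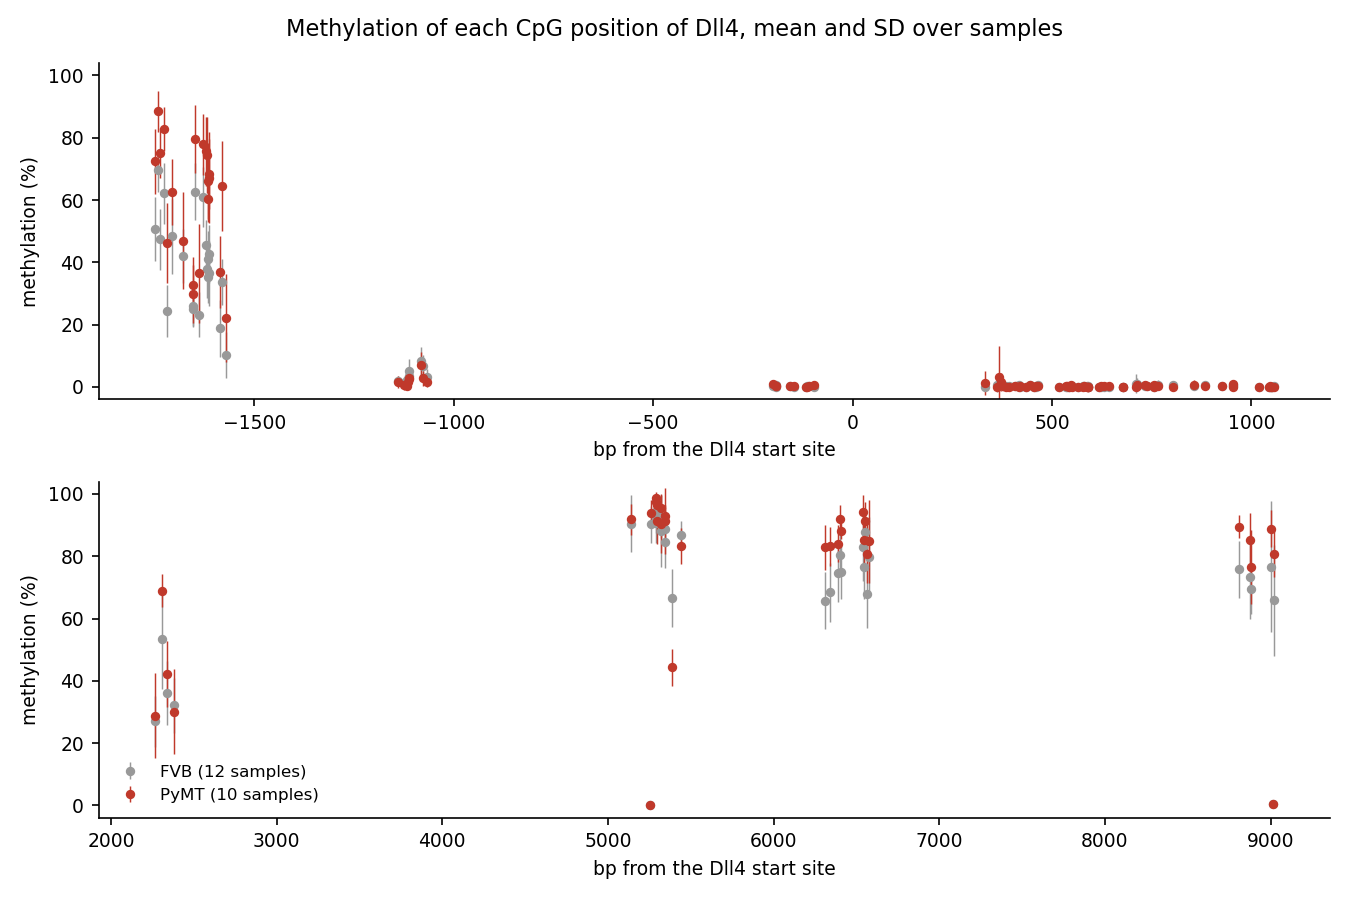
Percent methylation of each of the 126 Dll4 positions (mean and SD over 12 FVB samples in grey and 10 PyMT samples in red) against the distance from the TSS in bp, upstream and proximal positions above and the distal gene body below. The upstream cluster separates the strains, with cluster means of 60.3% and 40.2%, and the positions around the TSS lie near 0 in both.

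Jag2 (chr12:112908590-112929495, minus strand), a ligand of the Serrate type, held clusters of both signs. Its named cluster covers the end of coding exon 10 and intron 10 and has 6 positions at a mean coverage of 36.2 reads. It ranged from 14.6% to 40.1% in PyMT (median 25.4%) and from 31.6% to 74.99% in FVB (median 52.5%), and within every week the samples of the strains did not overlap. The difference was -25.9 ± 4.12 points (SE; limma adjusted p = 5.24e-05), called at each week. All 4 CpGs of the sequence were lower, by -19.3 to -33.0 points. A second cluster on coding exon 16 and intron 16 (chr12:112913578-112913646) was lower by -11.3 ± 2.18 points. In intron 5 (chr12:112917070-112917205) methylation was higher by 9.53 ± 1.72 points over all weeks (limma adjusted p = 0.000185), just under the size of a call, and the cluster was called higher at weeks 6, 10 and 12. At the Jag2 TSS a cluster of 169 positions was higher in all PyMT samples, 0.539% to 0.935% against 0.164% to 0.390%, a difference of 0.40 points that is far below the size of a call.

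The other ligands held no called cluster. Dll1 (chr17:15367354-15376932, minus strand), a Delta ligand known from somite formation, differed by 4.31 ± 1.64 points in coding exon 9 (chr17:15369039-15369107), from 80.8% to 89.8% in PyMT and from 75.3% to 88.2% in FVB (limma adjusted p = 0.0384). Its adjusted p rose above 0.05 without FVB week 8 replicate 2 (4.29 points) and in 5 other alternatives, the replicate block among them. Dll3 (chr7:28293555-28301785, minus strand), a divergent ligand that does not activate receptors on neighbouring cells, was lower by -2.04 ± 0.34 points in a cluster of 67 positions at intron 6 and coding exon 7 (chr7:28294444-28295024). That cluster ranged from 0.988% to 2.68% in PyMT and from 2.43% to 5.74% in FVB (limma adjusted p = 7.57e-05). Near the Dll3 TSS the clusters at 72 to 16 bp upstream and in coding exon 2 were higher by 3.86 ± 0.81 and 2.67 ± 0.69 points, while the cluster 1518 to 1399 bp upstream was lower by -6.16 ± 2.41 (limma adjusted p = 0.0440). Jag1 (chr2:137081451-137116520, minus strand), the other Serrate-type ligand, differed by 0.51 ± 0.12 points in intron 2 (chr2:137114555-137114856, limma adjusted p = 0.0020), at under 1.3% methylation in every sample. The Jag1 promoter was 0.256% methylated in PyMT and 0.192% in FVB over 189 positions.

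Hey1 (chr3:8663359-8667038, minus strand) encodes a repressor that Notch signalling switches on. All of its 100 positions lay within 2 kb of the TSS, and they averaged 0.107% ± 0.081 in PyMT (SD, n = 10) and 0.142% ± 0.103 in FVB (SD, n = 12). The cluster of 92 positions upstream of the TSS (chr3:8667054-8667664) ranged from 0.0279% to 0.351% in PyMT and from 0.0217% to 0.411% in FVB. The difference was -0.03 ± 0.05 points (SE; limma adjusted p = 0.688). No sample exceeded 0.411% there.

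The next question was whether the difference grew from the premalignant stages (weeks 6 and 8) to the malignant ones (weeks 10 and 12). The change in PyMT minus the change in FVB was called in 0 of the 78 clusters by limma, where 0.177% of all clusters were called with a larger and 0.222% with a smaller change. At an unadjusted p under 0.05 there were 4 of the 78 clusters with a larger and 2 with a smaller change. The share of all clusters at that threshold was not determined, so no result is drawn from these counts. The Dll4 cluster came nearest, at 12.2 points (limma adjusted p = 0.0744). In PyMT it went from 54.1% ± 5.76 at weeks 6 and 8 to 66.5% ± 1.09 at weeks 10 and 12 (SD, n = 5 each; exact permutation test, two-sided, p = 0.00794, the smallest possible). The 5 later PyMT samples lay between 65.3% and 67.9% and the 5 earlier ones between 44.9% and 60.2%. FVB was at 39.6% ± 2.90 and 40.7% ± 2.99 (SD, n = 6 each; exact permutation p = 0.513).

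For the other named clusters the interaction did not pass the adjusted threshold. It was -13.4 ± 4.56 points in Notch4 (SE; limma adjusted p = 0.209), where FVB went from 67.4% ± 6.78 to 76.5% ± 4.39 (SD, n = 6 each; exact permutation p = 0.0238) and PyMT from 54.5% ± 7.72 to 49.5% ± 2.64 (SD, n = 5 each; exact permutation p = 0.222). In Notch2, Notch3, Notch1 and Jag2 it lay between -5.20 and 2.72 points. At week 6, in hyperplasia, the differences were -51.3 points in Notch2, -32.0 in Notch3 and -27.0 in Jag2, each called. In Notch1 the week 6 difference of 22.1 ± 9.68 points was not called (SE; limma adjusted p = 0.152). Of the 19 promoters and bodies, 1 had an interaction with an adjusted p under 0.05, the Dll4 promoter, in the direction of a larger change (genome 1.76% larger and 0.546% smaller). That call was lost without PyMT replicate 2 (2.22 points, limma adjusted p = 0.118) and without any of the FVB replicate numbers, and with a promoter of 500 bp the value was -0.364 points (adjusted p = 0.746).

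Calls were unequal between levels of the controls. None of the 29 clusters under 10% in FVB was called. Of the 30 clusters between 10% and 80%, 7 were called higher and 5 lower. Of the 19 clusters over 80%, 0 were called higher and 5 lower. Among all clusters of the genome, the same classes held 1.09%, 17.1% and 0.246% called higher and 0%, 31.1% and 15.8% called lower. Levels near 0% or 100% leave no room for a fall or a rise of 10 points.

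**Figure D5:**
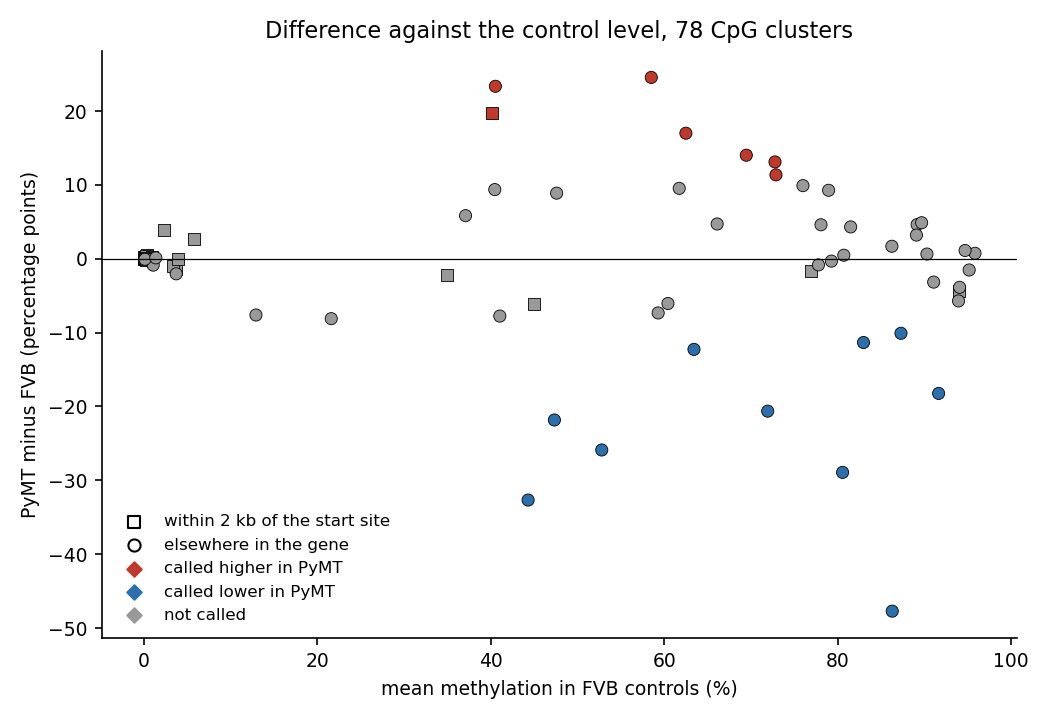
Methylation difference of the 78 clusters (PyMT minus FVB over all weeks, percentage points) against their mean methylation in FVB (percent), with squares for clusters within 2 kb of a TSS and circles for the others, red for called higher, blue for called lower and grey for not called. The crowd of squares near the origin holds the unmethylated promoters, and the called square at 40.2% is Dll4.

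The rest of the pathway was taken from a list of 46 genes with 277 clusters in 45 of them. There 28 clusters were called higher and 20 lower (10.1% and 7.22%), beside the genome's 6.32% and 16.1%. Of 44 promoters 1 was called, that of Mfng, a glycosyltransferase that modifies Notch, at -5.89 ± 1.21 points over 4 positions. By group, nuclear factors had 17 clusters higher and 8 lower of 132, endocytosis and turnover genes 4 and 6 of 65, other ligands 2 and 4 of 21, proteases and gamma-secretase 2 and 0 of 21, modifiers 0 and 2 of 17, and targets 3 and 0 of 21. The largest gains lay in Maml3, a coactivator of the Notch complex, at chr3:51888961-51889001 (38.9 ± 2.62 points) and chr3:52044653-52044799 (37.7 ± 1.71 points), and in Dtx4, a ubiquitin ligase, at chr19:12485568-12485585 (31.1 ± 2.96 points). Called losses included Neurl1a, a ubiquitin ligase, at chr19:47245246-47245368 (-21.5 ± 2.60 points) and Mfng at chr15:78759054-78759324 (-19.1 ± 1.37 points), both chosen after their values were seen. The promoters of the targets Hes1, Hes5 and Heyl differed by -0.06, -0.07 and 0.02 points. Outside the promoter, the Heyl body was higher by 9.29 ± 0.90 points over 45 positions (SE; limma adjusted p = 1.62e-07), where 10.5% of bodies in the genome were called higher. The Hes7 body differed by -0.06 points. The promoter of Hes7, which oscillates in the forming somites, was higher by 4.07 ± 0.71 points (SE; limma adjusted p = 0.000115), under the size of a call. That of Hey2, a relative of Hey1, was higher by 0.52 ± 0.17 points (adjusted p = 0.0181), and its interaction between the stages was 1.41 points (adjusted p = 0.0373). The promoter of the other ligand Dlk1 had a larger interaction, 1.67 points (limma adjusted p = 0.00443). Of all promoters and bodies in the genome, 1.76% passed with a larger change.

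Promoters of cell type marker genes moved with the strain as well. The mean over 9 luminal markers was 5.55% to 8.97% in PyMT and 13.3% to 18.8% in FVB. Over the 3 measured of 6 basal markers it was 21.1% to 25.2% and 24.6% to 33.7%, and over 4 of 6 adipocyte markers 42.0% to 50.03% and 50.9% to 58.8%. Over 6 of 8 endothelial markers it was higher in PyMT, 28.0% to 31.6% against 20.8% to 25.2%. The endothelial promoters did not move alike: Esam was higher by 35.03 points and Pecam1 by 16.3, while Cdh5 was lower by -16.0 points and Kdr by -0.34. The ranges overlapped for 4 of 6 fibroblast markers (3.02% to 7.43% and 1.68% to 5.38%) and for 2 of 7 leukocyte markers (58.8% to 80% and 66.6% to 74.0%). The part of cell makeup in the differences of the Notch genes was not tested.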

How the data were processed

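ERRBS libraries of 10 PyMT and 12 FVB samples were analysed. The authors aligned reads with Bismark to mm10 (submitters' processing notes), removed 2 outlying samples, and deposited a raw read count for every CpG cytosine with 10 or more reads, per sample and strand, beside the percent of these reads that were methylated. Methylated read counts were recovered as coverage times percent, rounded. By the study's methods each stage had 3 PyMT animals and 3 controls. The removal of the 2 outlying samples left fewer PyMT animals at the hyperplasia and late carcinoma stages. The p-values of limma and of the permutation tests measure the spread between animals. The q-values of the DMCs come from pooled reads and do not measure that spread. A position's precision is limited by its 10 or more reads (mean coverage 60.2 to 79.2 per sample).

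Positions covered in all 22 samples were kept. DMCs were tested by the likelihood ratio of a logistic regression on pooled reads of a week (q under 0.01, at least 10 points). Clusters and gene regions (promoter within 2 kb of a TSS, rest of the body) were tested with limma 3.58.1 in R 4.3.3 on mean percent methylation, with 8 group means and a trended prior. Calls needed an adjusted p under 0.05 and 10 points for clusters or 5 points for gene regions. The exact permutation test used 40000 arrangements within weeks, two-sided (smallest p 2.5e-05). Standard errors are limma's. Coordinates are of mm10, and transcripts are curated RefSeq. Python 3.11.15, NumPy 2.4.6, SciPy 1.17.1 and pandas 2.3.3 were used. Scripts were tested on simulated data.

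For each gene the called cluster with the largest difference was named, or the cluster with the lowest adjusted p where none was called, and other called clusters were given by position. In the pathway list the 3 largest called gains were named; not all of the largest losses are reported here. The members and lists were chosen with earlier results of these data known. Promoter sequences of 9 of the 10 genes were found in the RefSeq table. Same-numbered samples of the strains showed little common deviation (r of 10 pairs from -0.0757 to 0.0602), and the main tests treated samples as unpaired. The r values within a week are not independent. With FVB replicate 1 at week 6, the PyMT samples gave mirrored values of 0.00449 and -0.00449. In groups this small the check cannot exclude a batch or litter shared by same-numbered samples. Alternatives were a minimum of 20 reads, merged strands, an overdispersion correction, 25 points, log2 ratios, other gaps, a promoter of 500 bp, a replicate block and leaving out replicates.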

Additional observations from a re-analysis of the deposited data

Results flagged for a closer look

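The Dll4 promoter changed more in PyMT than in FVB from weeks 6 and 8 to weeks 10 and 12, by 2.695 points on the mean of its 93 positions (limma interaction, adjusted p = 0.0206 over all promoters and bodies, of which 1.76% passed with a larger change). In PyMT it went from 12.7% ± 1.28 to 15.4% ± 0.26 (SD, n = 5 each; exact permutation p = 0.00794), higher in 5 of 5 later samples than in any earlier one. In FVB it was 9.50% ± 0.72 and 9.70% ± 0.78 (SD, n = 6 each; exact permutation p = 0.652). The cluster 1750 to 1570 bp upstream of the TSS holds 21 of these positions at 60.3% in PyMT, and the clusters nearer to the TSS lie at 2.34% or less. The adjusted p rose above 0.05 without PyMT replicate 2 or without any FVB replicate number, was 0.116 with the replicate block and 0.846 on log2 ratios of reads. With a promoter of 500 bp the value was -0.364 points (adjusted p = 0.746). The result was picked out because the size of a strain difference itself differed between stages.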

How the results depend on the processing

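The direction of 9 of the 10 named clusters was kept under every alternative in which they were tested. The named clusters of Notch1, Notch2, Notch3 and Jag2 were not tested with the higher minimum of reads. The Hey1 cluster ran from -0.0649 to 0.00346 points with a replicate number left out and turned without FVB replicate 1, and the Dll1 cluster was no longer under an adjusted p of 0.05 in 6 alternatives, the replicate block included. Of the settings tried after seeing the data, a promoter of 500 bp turned the Dll4 promoter interaction to -0.364 points (adjusted p = 0.746), because the upstream cluster falls outside it. Its adjusted p ran from 0.0908 to 0.126 without PyMT replicate 2 or without any of the FVB replicate numbers (2.22 to 2.82 points), was 0.116 with the replicate block (2.58 points) and 0.846 on log2 ratios of reads.

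With a minimum of 20 reads, 68 clusters could be tested; 4 were called higher and 6 lower over all weeks, 1 lower at week 6, 3 lower at week 8, 5 lower at week 10, and 6 higher and 3 lower at week 12, and hypo-DMCs were 24, 29 and 37 at weeks 6, 8 and 10. At 25 points hyper- and hypo-DMCs were 7 and 21 at week 6, 11 and 16 at week 8, 23 and 24 at week 10, and 24 and 23 at week 12. The overdispersion correction left 11 and 15, 21 and 11, 35 and 29, and 30 and 25. Clusters called higher at week 6 were 1 with gaps of at most 50 bp and 1 with the replicate block. Over all weeks the replicate block gave 9 clusters higher and 10 lower. With a 500 bp promoter 0 gene regions were called higher.

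Leaving out a replicate number gave 0 to 5 clusters higher and 2 to 4 lower at week 6, 2 to 5 higher and 3 to 8 lower at week 8, and 6 to 9 higher at week 12, with 11 at week 12 without FVB week 8 replicate 2 alone. It gave 19 to 38 hyper-DMCs at week 6 and 29 to 53 hypo-DMCs at week 12. The cause of these shifts was not tested. The groups hold 2 or 3 samples, which limits every comparison within a week.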

Other observations

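Inside clusters that were over 20% methylated in FVB, 5 positions were under 5% in every one of the 22 samples. In Notch2, both strands of the CpG at chr3:98071109-98071110 reached at most 0.680% and 0% at mean coverages of 122 and 89.9 reads, beside 72.5% in FVB over the other 5 positions of the cluster. In Dll4, the minus-strand position 119331040 on chr2 reached at most 1.61% beside 88.1% in FVB over 11 others, and position 119334798 at most 3.57% beside 71.2% over 2 others. In Jag2, position 112930483 on chr12 was at 0% beside 42.0%.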
